A study of Mus musculus with 4 samples.

Results

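The suprabasal barrier and cornified envelope genes are 36 genes that keratinocytes switch on as they leave the basal layer and build the outer barrier of the skin. They were taken by gene symbol from the 56980 genes of the count matrices, and all 36 symbols were present. Single-cell RNA-seq libraries were made from dorsal skin of mouse embryos, E16.5 per the labels, with 2 Ctrl and 2 TKO (triple knockout) libraries, each from 1 embryo per the methods of the study. The study's own list of litters gives an earlier day for the scRNA-seq litter and describes the knockout as mosaic. Ctrl embryos were Suv39h1 f/f, Suv39h2-/- and Setdb1 f/f without Cre (K14CreERT2-), and TKO embryos carried the same alleles together with K14CreERT2. Both groups received tamoxifen and both lack Suv39h2, so the comparison concerns the further loss of Suv39h1 and Setdb1. The 3 genes encode methyltransferases of histone H3 lysine 9. K14CreERT2 is a tamoxifen-dependent recombinase under a promoter of basal keratinocytes, so recombination starts in basal cells and is inherited by the layers above. Cells were sorted as Epcam+ and α6+, that is, epithelial cells holding the integrin that anchors basal cells to the basement membrane.

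The epidermis renews from the basal layer outward. Cells that detach from the basement membrane become spinous cells, which replace Krt5 and Krt14 with Krt1 and Krt10 and strengthen their desmosomes, the junctions that rivet neighbouring cells together. In the granular layer the cells load precursors such as loricrin, involucrin and filaggrin, transglutaminases crosslink these under the membrane into the cornified envelope, and lipid enzymes build the ceramides that seal the spaces between the dead cells. Proteases and their inhibitors then time the shedding of those cells.

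The 4 matrices held 3804 to 5785 barcodes and 70749496 to 89655247 UMIs (unique molecular identifiers, each counting 1 captured RNA molecule). Ctrl replicates 1 and 2 and TKO replicates 1 and 2 gave 1381, 1587, 946 and 873 basal-like cells. The early suprabasal-like cells numbered 200, 178, 71 and 105 and the spinous-like cells 606, 373, 165 and 323, although the labels call the sorted cells basal epithelial cells. Classes were named from other marker genes, and none of the 36 genes entered the clustering of the keratinocytes or the names. TKO cells held more UMIs, with a median of 30260.5 and 27374 UMIs per basal-like cell against 20832 and 17220 in Ctrl. Any 2 libraries shared at most 12 cell barcodes as deposited. Setdb1, whose floxed allele is the target of the Cre, was lower in TKO, at 72.8 and 58.3 CPM (UMIs of the gene per 1000000 UMIs of the class in that library) in the Ctrl basal-like cells and 40.2 and 44.9 CPM in the TKO cells. The Suv39h1 values overlapped, at 31.9 and 29.1 CPM in Ctrl and 29.2 and 24.2 CPM in TKO, and a 3' tag need not lie in the deleted part of either gene.

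Promoter windows are shown for members that differed between the genotypes in basal-like cells, because genes that move together can be compared by the sequence before their start. The windows are the 250 bases upstream of the start from RefSeq on GRCm38.p6, written 5′ to 3′ on the gene's strand. Capitals mark AP-1 motifs (TGANTCA, searched on both strands), the binding letters of the Fos and Jun factors that act in keratinocyte differentiation, and TATA boxes (TATAAA, both strands). Of the 36 genes, 28 matched the RefSeq table, and Calml3, Evpl, Ppl, Dsg1a, Dsc1, Spink5, Aloxe3 and Ly6d did not. The windows of 3 genes that were higher in TKO come first.
Scel, chr14:103513091-103513340, plus strand: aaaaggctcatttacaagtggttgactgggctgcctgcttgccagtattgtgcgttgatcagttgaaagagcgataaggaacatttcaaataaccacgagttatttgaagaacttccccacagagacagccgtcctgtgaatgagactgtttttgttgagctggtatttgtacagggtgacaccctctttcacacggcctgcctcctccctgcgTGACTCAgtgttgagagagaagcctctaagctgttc
Lor, chr3:92083143-92083392, minus strand: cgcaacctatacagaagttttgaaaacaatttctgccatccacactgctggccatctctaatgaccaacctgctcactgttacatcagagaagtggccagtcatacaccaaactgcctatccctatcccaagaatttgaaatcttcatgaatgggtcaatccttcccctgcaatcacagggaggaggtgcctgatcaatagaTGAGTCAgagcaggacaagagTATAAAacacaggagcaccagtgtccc
Dmkn, chr7:30763506-30763755, plus strand: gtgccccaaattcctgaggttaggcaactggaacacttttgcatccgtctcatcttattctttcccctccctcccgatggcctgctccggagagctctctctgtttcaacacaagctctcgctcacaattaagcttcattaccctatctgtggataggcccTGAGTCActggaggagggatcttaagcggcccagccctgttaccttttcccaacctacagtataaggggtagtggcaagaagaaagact
The windows of 4 genes that were lower in TKO follow, of which Serpinb12 stood below its background in most libraries, as given with its values.
Serpinb12, chr1:106934199-106934448, plus strand: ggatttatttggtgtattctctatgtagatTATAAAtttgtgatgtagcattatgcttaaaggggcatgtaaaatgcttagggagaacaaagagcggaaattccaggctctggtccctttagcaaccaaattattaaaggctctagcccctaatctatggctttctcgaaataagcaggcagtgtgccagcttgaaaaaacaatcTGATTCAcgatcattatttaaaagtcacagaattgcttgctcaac
Calm4, chr13:3837507-3837756, plus strand: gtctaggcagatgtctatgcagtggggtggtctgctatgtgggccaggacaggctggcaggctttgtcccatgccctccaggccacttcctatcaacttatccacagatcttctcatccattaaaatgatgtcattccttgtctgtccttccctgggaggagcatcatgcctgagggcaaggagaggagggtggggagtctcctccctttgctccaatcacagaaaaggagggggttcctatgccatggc
Capns2, chr8:92901145-92901394, plus strand: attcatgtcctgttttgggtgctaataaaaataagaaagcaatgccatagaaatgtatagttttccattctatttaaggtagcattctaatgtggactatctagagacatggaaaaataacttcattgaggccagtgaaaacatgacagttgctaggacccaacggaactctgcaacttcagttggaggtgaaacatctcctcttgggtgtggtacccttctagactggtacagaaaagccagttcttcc
Cers3, chr7:66743254-66743503, plus strand: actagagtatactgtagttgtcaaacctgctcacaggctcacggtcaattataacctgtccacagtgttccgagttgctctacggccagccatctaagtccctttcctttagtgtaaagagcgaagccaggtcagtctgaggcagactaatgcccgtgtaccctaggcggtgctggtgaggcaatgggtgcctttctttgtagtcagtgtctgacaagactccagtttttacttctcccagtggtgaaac
Each of the first 3 windows held 1 AP-1 motif, which began 36 bases before the start of Scel, 48 before Lor and 89 before Dmkn, and the Lor window held a TATA box 27 bases before its start. Of the other 4, the Serpinb12 window held 1 AP-1 motif, 45 bases before the start, and a TATA box 220 bases before it, and the Calm4, Capns2 and Cers3 windows held neither. Over the 28 matched genes, 9 windows (32.1%) held the AP-1 motif, against 6.85% of 27025 promoter windows in the table. A TATA box stood in 11 of the 28 (39.3%) against 13.0% of all windows. A match of letters does not show a bound factor.

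In the Ctrl libraries each of the 36 genes had its highest mean CPM in spinous-like cells, although the names of the classes did not use them. Not every gene rose at the first step, and the Ctrl mean of Lor was 7.41 CPM in basal-like and 4.70 CPM in early suprabasal-like cells. The rise from basal-like to spinous-like cells was smallest for Cers3, a ceramide synthase, at 1.75-fold, and for Ppl (periplakin), a scaffold of the envelope, at 2.10-fold. For Ly6d, a surface protein of stratified epithelium, it was 178-fold. Of the genes of the granular and cornified layers, Flg, Ivl, Rptn, Cdsn, Mt4, Krt2, Klk5 and Klk7 stayed under 6 CPM in the spinous-like cells of either Ctrl library, while Lor, Hrnr and Casp14 had Ctrl means of 86.5, 53.1 and 124 CPM there. Flg (filaggrin), Rptn and Krt2 had 0 UMIs in the basal-like cells of all 4 libraries.

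**Figure D1:**
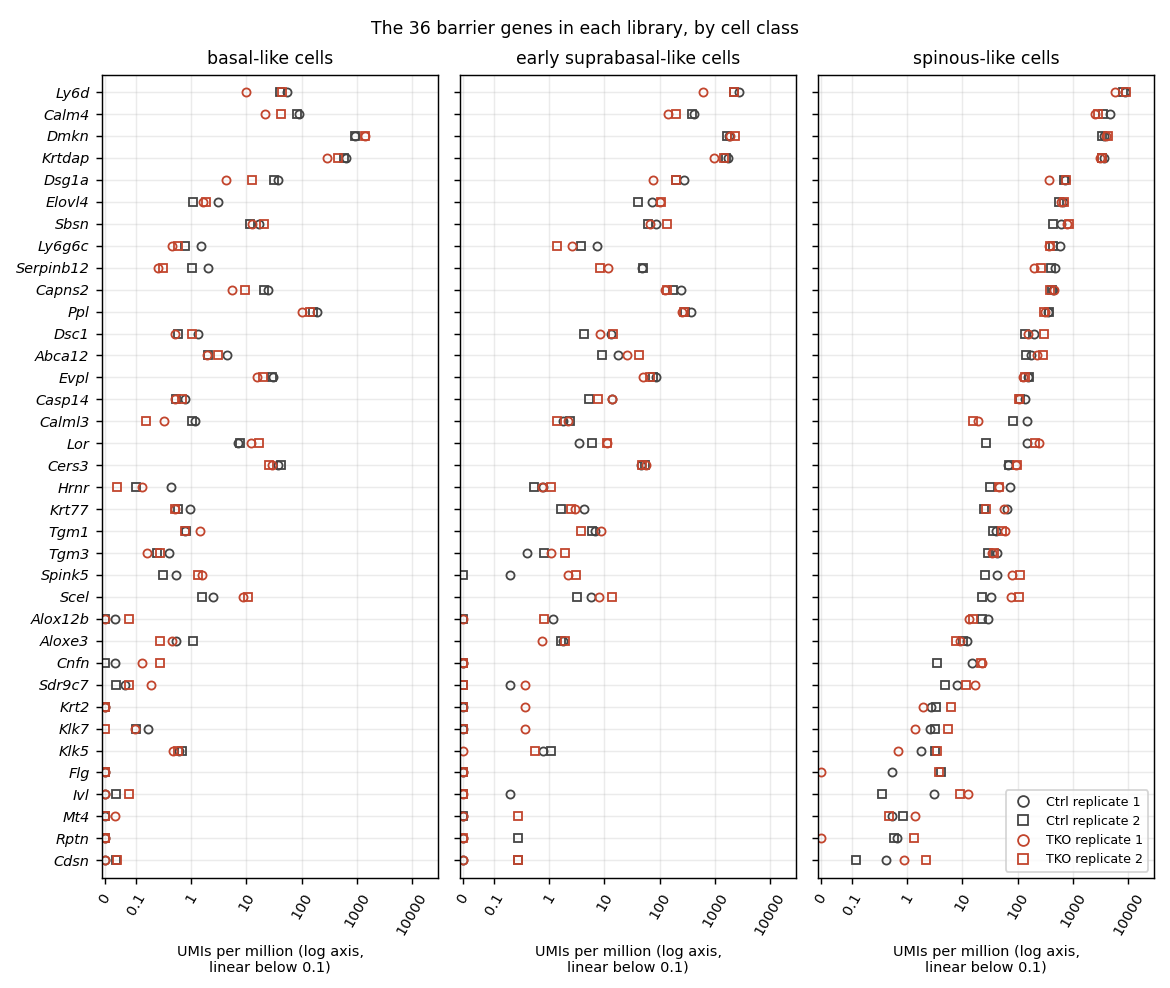
CPM (log axis, linear below 0.1) of each of the 36 genes in basal-like, early suprabasal-like and spinous-like cells, with 1 point per library (grey Ctrl, red TKO, circles replicate 1, squares replicate 2). The points of most genes move to the right from the left panel to the right panel, and the red points of Calml3 in spinous-like cells, 19.4 and 15.3 CPM, lie to the left of the grey points, 147.5 and 83.9 CPM.

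Levels outside the keratinocytes were taken from the fibroblast-, immune-, melanocyte- and endothelial-like cells of the same libraries, called background cells here. Free RNA from broken cells and RNA of the background cells' own cannot be told apart in these values. Krt1 and Krt10 together stood at 398, 98.6, 28.9 and 108 CPM in the background cells of Ctrl replicates 1 and 2 and TKO replicates 1 and 2. In the basal-like cells they stood at 304.5, 153, 55.8 and 129 CPM. The full list of 12 differentiation markers, Krt1 and Krt10 among them, went the other way in basal-like cells, with a sum of 2154.5 and 1756.5 CPM in Ctrl and 3613 and 3446 CPM in TKO. In both kinds of cells the RNA of the 2 keratins was highest in Ctrl replicate 1 and lowest in TKO replicate 1. Background levels are given beside the called genes, and their part in the genotype differences was not tested. Serpinb12, Tgm1, Elovl4 and Alox12b did not stand above their background cells in most libraries, and no expression is read from their values in basal-like cells. Ly6g6c, Hrnr and Cnfn stood above theirs in 2 of 4 libraries, and their basal-like values are not read as expression either. For Tgm1 most of the background UMIs were in immune-like cells, at 3.70 to 10.05 CPM, against 0 to 1.28 CPM in fibroblast-like cells.

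In basal-like cells, 11 of the 24 members tested differed between TKO and Ctrl, against 11.7% of the 17420 genes tested there. Scel, Dmkn, Lor and Spink5 were higher in TKO, and Serpinb12, Calml3, Dsg1a, Capns2, Calm4, Evpl and Cers3 were lower. Among all genes tested, 7.43% were called higher and 4.29% were called lower. The median log2 change of the 24 members was −0.54, against −0.02 over all genes tested. The remaining 12 members had too few UMIs to be tested. Without Ctrl replicate 1 Scel was the 1 member that passed, without Ctrl replicate 2 5 did, and with cells thinned to 5000 UMIs 7 did. With DESeq2 9 members passed, and Calml3, Dsg1a and Spink5 missed the threshold (DESeq2 adjusted p = 0.0566, 0.0547 and 0.0573) with similar changes. Calls here and below are Benjamini-Hochberg adjusted p under 0.05 in edgeR's quasi-likelihood test on the UMIs summed per library. With n = 2 libraries per group, the test measures the spread between embryos of this one collection.

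The structural proteins of the envelope did not move together in basal-like cells. Scel (sciellin, chr14:103750515-103851219 on GRCm39), a precursor of the envelope, had 2.51 and 1.59 CPM in Ctrl, against 8.70 and 10.6 CPM in TKO. Both TKO values lay above both Ctrl values (log2 change 2.24, SE 0.28, edgeR adjusted p = 0.00790). In background cells Scel was at 0.268, 0.536, 1.01 and 4.11 CPM in Ctrl replicates 1 and 2 and TKO replicates 1 and 2. It was thus also higher in the TKO background cells. The basal-like level was 9.35 and 2.97 times the background of its library in Ctrl. In TKO it was 8.57 and 2.58 times that background, so the ratios overlap. Lor (loricrin, chr3:91987578-91990449), the major protein of the mature envelope, was at 7.03 and 7.80 CPM in Ctrl and 12.3 and 16.8 CPM in TKO (log2 change 0.98, SE 0.21, adjusted p = 0.0332). The groups did not overlap, and Lor in background cells was level between the libraries, at 0.949 to 1.61 CPM. Evpl (envoplakin, chr11:116111385-116128923), which forms a scaffold under the membrane together with periplakin, was at 30.2 and 29.6 CPM in Ctrl and at 15.4 and 19.6 CPM in TKO. Its log2 change was −0.77 (SE 0.16, adjusted p = 0.0303), and its background was 1.07 to 3.49 CPM. Its partner Ppl was at 187 and 162 CPM in Ctrl and at 101 and 142 CPM in TKO and did not pass the test (log2 change −0.52, SE 0.18, adjusted p = 0.124). Ivl, Flg, Hrnr, Rptn and Cnfn were not tested there and had at most 13 UMIs in any library.

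Among the secreted suprabasal proteins and small markers, 1 gene rose and 4 fell in basal-like cells, of 9 tested, against 7.43% and 4.29% of all genes, and the 4 include Serpinb12, which is not read as expression there. Dmkn (dermokine, chr7:30463176-30480488), a secreted protein of the upper layers, was at 948 and 916 CPM in Ctrl and at 1390 and 1402 CPM in TKO (log2 change 0.59, SE 0.094, adjusted p = 0.0152). This was a small change in an abundant RNA, which was at 11.2 to 73.7 CPM in background cells. Few melanocyte-like cells held much of that background, with 119 of 275 UMIs in 6 cells of Ctrl replicate 1 and 356 of 517 UMIs in 19 cells of TKO replicate 2, and Dmkn in fibroblast-like cells was at 6.65 to 28.4 CPM. Dmkn lies between Sbsn and Krtdap on chromosome 7, with gaps of 7616 and 6832 bases, and these neighbours did not pass the test. Krtdap, a small secreted protein of differentiating keratinocytes, was at 635 and 598 CPM in Ctrl and at 292 and 452 CPM in TKO (log2 change −0.72, adjusted p = 0.0802). Sbsn (suprabasin) overlapped between the groups, with 17.1 and 11.8 CPM in Ctrl and 12.4 and 21.1 CPM in TKO.

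Calm4 and Calml3, which encode calmodulin-like calcium-binding proteins of the differentiating epidermis, lie 33440 bases apart on chromosome 13, and both were lower in TKO. Calm4 (chr13:3887757-3888673) was at 91.7 and 82.4 CPM in Ctrl and at 21.5 and 42.0 CPM in TKO (log2 change −1.45, SE 0.30, adjusted p = 0.0306). Its background level was 41.8 CPM in Ctrl replicate 1 and 6.16, 1.20 and 6.41 CPM in Ctrl replicate 2 and TKO replicates 1 and 2. The basal-like level was 2.19 to 17.9 times background, and the lowest of these ratios was that of Ctrl replicate 1, the library with the most Krt1 and Krt10 in its background cells. Calm4 overlaps Gm40655 on the same strand, so that reads of the pair may be split. Calml3 (chr13:3852896-3854316) rested on 35, 30, 10 and 4 UMIs in the whole class (log2 change −2.15, SE 0.46, adjusted p = 0.0330), against 2, 0, 0 and 1 UMIs in background cells.

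Capns2 (chr8:93628035-93629039), a small calpain subunit, was at 25.1 and 20.7 CPM in Ctrl and at 5.57 and 9.39 CPM in TKO. The groups were well apart (log2 change −1.61, SE 0.27, adjusted p = 0.0163). The background was lower in TKO as well, at 4.56 and 1.88 CPM in Ctrl and 0.553 and 1.03 CPM in TKO. The basal-like level was 5.51 and 11.04 times background in Ctrl and 10.1 and 9.13 times in TKO, so the ratios overlap. Capns2 lies within Lpcat2 on the same strand, and reads from that gene could be counted with it. Serpinb12 (chr1:106859355-106884814), an intracellular protease inhibitor, was called as well, at 2.05 and 1.05 CPM in Ctrl and at 0.255 and 0.309 CPM in TKO (log2 change −2.45, SE 0.49, adjusted p = 0.0278). Its background cells were at 4.83, 1.34, 0.184 and 0.475 CPM, above the basal-like cells in 3 of 4 libraries, while its fibroblast-like cells were at 0, 2.65, 0.246 and 0 CPM, so the call is not read as expression in basal-like cells. Ly6d did not pass the test and was low in TKO replicate 1 alone, with 55.2 and 40.9 CPM in Ctrl and 9.87 and 44.3 CPM in TKO (adjusted p = 0.425). The Ly6d background was 76.4 CPM in Ctrl replicate 1, above its basal-like cells, and 3.87 to 21.04 CPM in the other libraries.

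The adhesion, protease and lipid genes gave 1 call each in basal-like cells, of 2, 3 and 4 tested, against 11.7% of all genes. Dsg1a (chr18:20443868-20476407) encodes desmoglein 1, the desmosomal cadherin of the upper layers. It was at 38.1 and 31.4 CPM in Ctrl and at 4.20 and 12.8 CPM in TKO (log2 change −2.03, SE 0.46, adjusted p = 0.0388). Both TKO values lay below both Ctrl values. The level was 3.84 and 19.5 times background in Ctrl and 22.8 and 5.05 times in TKO, so the ratios overlap. The background was 9.92 and 1.61 CPM in Ctrl and 0.184 and 2.53 CPM in TKO. Without TKO replicate 1 the log2 change was −1.41, and without TKO replicate 2 it was −3.07. Reads of Dsg1a shared with its close copies Dsg1b and Dsg1c could be split between them. Dsc1, the desmocollin that pairs with desmoglein 1, overlapped between the groups at 0.510 to 1.32 CPM. Spink5 (chr18:44096302-44155568), which encodes the inhibitor LEKTI that restrains the kallikreins of shedding, was at 0.528 and 0.305 CPM in Ctrl and at 1.59 and 1.31 CPM in TKO (log2 change 1.79, SE 0.40, adjusted p = 0.0379). Those values stand for 16, 9, 50 and 34 UMIs, and Ctrl replicate 2 did not exceed its background of 0.536 CPM. Casp14, the protease that processes filaggrin, overlapped at 0.510 to 0.759 CPM, with a background of 0 to 0.804 CPM.

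Cers3 (chr7:66393252-66473439) was at 37.8 and 41.7 CPM in Ctrl and at 28.9 and 25.3 CPM in TKO (log2 change −0.55, SE 0.12, adjusted p = 0.0346). This was the smallest of the 11 called changes and stood 12.8 to 39.2 times above background. Abca12, the lipid transporter of lamellar granules, overlapped at 1.94 to 4.39 CPM (adjusted p = 0.649). Elovl4, which elongates the very long fatty acids of barrier ceramides, overlapped at 1.08 to 3.07 CPM, below its background in all 4 libraries. Of the transglutaminases that crosslink the envelope, Tgm1 overlapped at 0.759 to 1.47 CPM (adjusted p = 0.459) and Tgm3 had at most 12 UMIs and was not tested. Of the keratins, Krt77 was not called (adjusted p = 0.414). Klk5, Aloxe3 and Ly6g6c were tested without a call, with log2 changes of −0.27, −1.14 and −1.16, and Alox12b, Sdr9c7, Klk7, Cdsn, Mt4 and Krt2 were not tested.

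**Figure D2:**
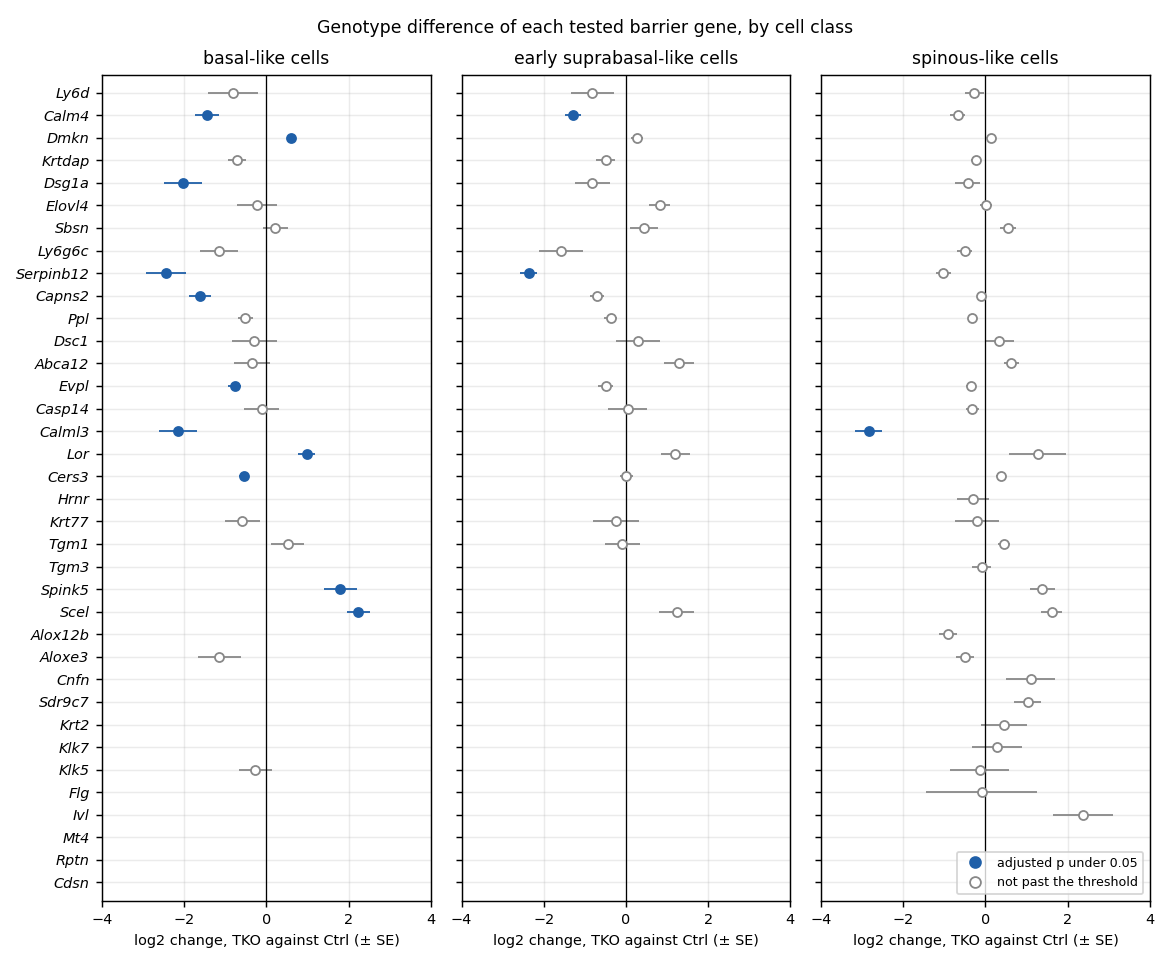
Log2 change of TKO against Ctrl with its standard error (n = 2 libraries per group) for each tested member in 3 classes of cells; filled points have an edgeR adjusted p under 0.05, and genes without a point were not tested. Filled points lie on both sides of 0 in basal-like cells, with Scel at 2.24 and Serpinb12 at −2.45, and Calml3 at −2.85 is the filled point in spinous-like cells.

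The share of cells with a UMI followed the summed values when each cell was thinned to 5000 UMIs, which sets the same number of UMIs in every cell. Dsg1a was detected in 15.7% and 13.5% of Ctrl and in 1.48% and 5.16% of TKO basal-like cells, against 0% to 2.51% of background cells. Calm4 was detected in 27.5% and 27.4% of Ctrl and in 7.84% and 15.1% of TKO cells, against 0.198% to 6.03% of background cells. Scel was detected in 1.03% and 0.637% of Ctrl and in 4.03% and 4.24% of TKO cells, against 0% to 1.39% of background cells. Lor was detected in 3.37% and 3.31% of Ctrl and in 5.72% and 8.26% of TKO cells, against 0.503% to 0.840% of background cells. Without thinning the same shares were 42.2%, 35.9%, 6.87% and 21.3% for Dsg1a and 58.0%, 54.2%, 28.0% and 43.5% for Calm4, with the Ctrl libraries given before the TKO libraries. They were 3.33%, 1.89%, 16.1% and 16.4% for Scel and 12.1%, 11.8%, 29.1% and 34.0% for Lor. The median depth of background cells was 16163 and 13778 UMIs for Ctrl, and 18825 and 18233 UMIs for TKO. The directions were those of the sums for all 4 genes.

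**Figure D3:**
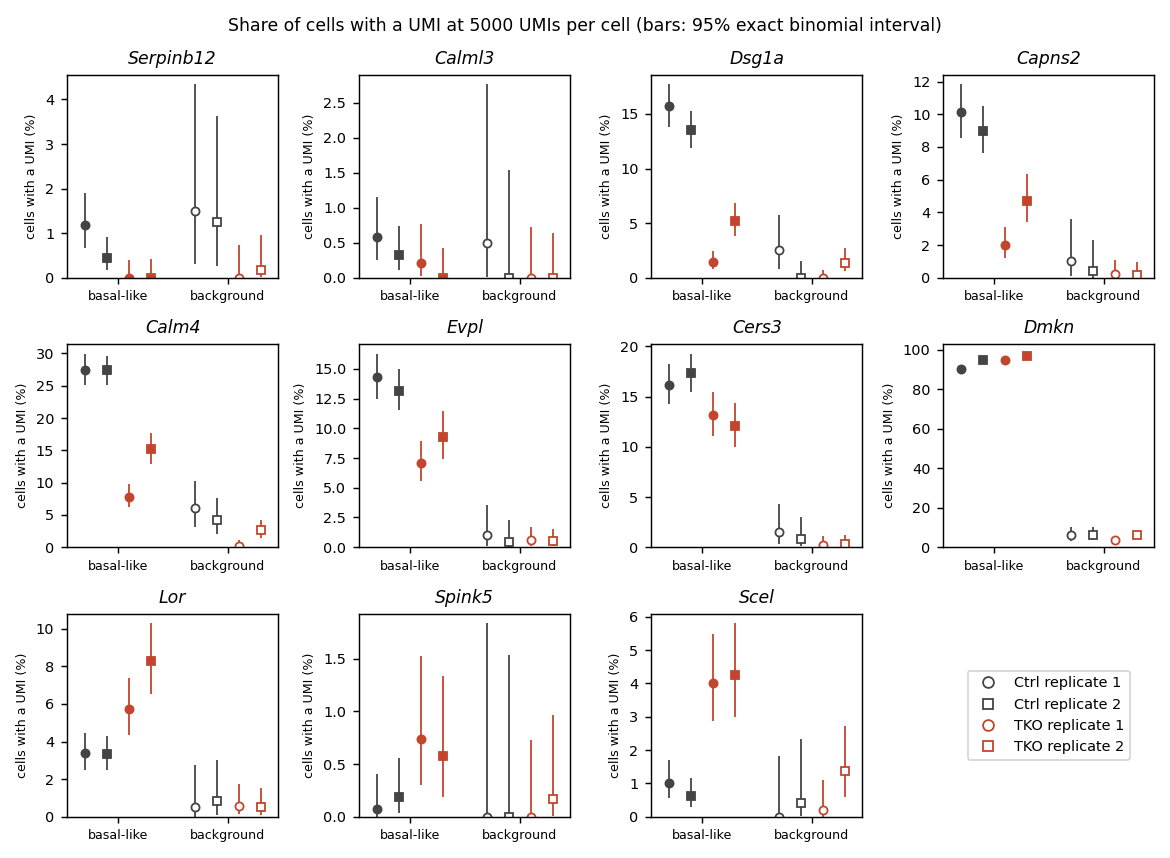
Percent of cells with at least 1 UMI, at 5000 UMIs per cell, for the 11 members called in basal-like cells; filled points are basal-like cells, open points background cells, grey Ctrl, red TKO, and bars 95% exact binomial intervals, which cover counting error only. Dsg1a stands at 15.7% and 13.5% in Ctrl and 1.48% and 5.16% in TKO, Scel at 1.03% and 0.637% against 4.03% and 4.24%, and Serpinb12 in basal-like cells is no higher than in background cells in most libraries.

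At 5000 UMIs a Ctrl basal-like cell held on average 3.47 and 3.38 of the 36 genes, and a TKO cell 2.44 and 2.99. Both TKO values were lower. The exact two-sided permutation test gave p = 0.333, which is the smallest that 2 against 2 libraries allow. Background cells held 0.182 to 0.508 of the genes. Spinous-like cells held 13.01 and 12.01 for Ctrl and 12.5 and 13.2 for TKO, which overlap.

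In early suprabasal-like cells, the first above the basal layer, 2 of the 20 members tested were called, both lower in TKO, against 2.61% of the 11705 genes tested. Serpinb12 was at 47.6 and 50.6 CPM in Ctrl and at 11.7 and 8.22 CPM in TKO (log2 change −2.37, SE 0.21, edgeR adjusted p = 0.00356). The Ctrl values agreed closely, and here Serpinb12 stood far above its background cells. Calm4 was at 416 and 381 CPM in Ctrl and at 139 and 199 CPM in TKO (log2 change −1.28, SE 0.20, adjusted p = 0.0249). Both calls were lost when the members and the genes that differ between the genotypes were let into the clustering, with log2 changes of −0.96 for Serpinb12 and −0.40 for Calm4 (edgeR adjusted p = 0.0717 and 0.510). At Leiden resolution 2, which cuts finer clusters, the call of Calm4 was lost as well (log2 change −0.48, adjusted p = 0.110) and that of Serpinb12 was kept with a smaller change of −1.10 (adjusted p = 0.0153). The count of called members also moved when a library was left out, in fits that hold 1 library in a group, and is not read alone. Krt1 and Krt10 together stood at 8798 and 5972 CPM in these Ctrl cells and at 3169 and 4512 CPM in the TKO cells, while the sum of all 12 differentiation markers overlapped, at 18688 and 13816 CPM in Ctrl and 15843 and 17593 CPM in TKO. The part of the keratin difference was not tested.

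The other early suprabasal-like members gave values without a call. Capns2 was at 241 and 178 CPM in Ctrl and at 126 and 139 CPM in TKO (log2 change −0.72, edgeR adjusted p = 0.0866). Lor was at 3.51 and 5.89 CPM in Ctrl and at 11.01 and 10.95 CPM in TKO (log2 change 1.20, adjusted p = 0.137). Abca12 was at 17.7 and 9.10 CPM in Ctrl and at 25.7 and 42.7 CPM in TKO (adjusted p = 0.127). None of these 3 genes passed the test across all genes. Their groups did not overlap, an order that is common with 2 against 2 libraries. In hair follicle-like cells 29.2% of genes with enough UMIs were higher and 32.5% lower in both TKO libraries. Dsg1a differed mainly by 1 library, with 280 and 200 CPM in Ctrl and 74.5 and 202 CPM in TKO. Spink5 was not tested, with 1 and 0 UMIs for Ctrl against 6 and 11 UMIs for TKO.

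In spinous-like cells, which make these genes most, 1 of the 33 members tested was called, against 1.93% of the 13349 genes tested. Calml3 was at 147.5 and 83.9 CPM in Ctrl and at 19.4 and 15.3 CPM in TKO (log2 change −2.85, SE 0.32, edgeR adjusted p = 0.0249). The lower Ctrl library was thus over 4 times the higher TKO library. A UMI of Calml3 was found in 22.8% and 13.1% of Ctrl and in 6.67% and 5.26% of TKO spinous-like cells at 5000 UMIs per cell, and in at most 0.503% of background cells. Within the most mature large cluster of the class, with 623 cells, Calml3 was at 263 and 167 CPM in Ctrl and at 35.2 and 20.5 CPM in TKO. The lower level was therefore also present within that cluster. The gap was smaller in the less mature large cluster of 681 cells. Calml3 was there at 10.9 and 6.07 CPM in Ctrl and at 3.81 and 4.42 CPM in TKO. In a cluster of 40 cells the groups overlapped, at 386 and 0 CPM in Ctrl and 65.0 and 243 CPM in TKO. Krt1 and Krt10 together stood at 55121 and 54476 CPM in Ctrl and at 26561 and 40388 CPM in TKO spinous-like cells. The sum of all 12 differentiation markers was 78043 and 74863 CPM in Ctrl and 53701 and 70854 CPM in TKO, so that the other 10 markers together were higher in TKO. Mki67, a marker of dividing cells, was at 17.3 and 25.1 CPM in Ctrl and at 69.2 and 39.4 CPM in TKO. The part of these differences in the barrier gene values was not tested.

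Several spinous-like members came near the threshold, and the count of called members and its direction moved with the setting. It was 6 with DESeq2 (3 higher and 3 lower in TKO, of 719 genes called in all) and 8 at 5000 UMIs per cell (6 higher and 2 lower, of 297). It moved again, in number and direction, when a library was left out. Those fits hold 1 library in a group, and the calls over all genes moved as well, so their member counts are not read here. Scel was at 33.1 and 22.7 CPM in Ctrl and at 75.9 and 105 CPM in TKO (log2 change 1.61, SE 0.26, edgeR adjusted p = 0.0505). Serpinb12 was at 479 and 408 CPM in Ctrl and at 198 and 262 CPM in TKO (log2 change −1.03, SE 0.19, adjusted p = 0.0658). Spink5 was at 42.4 and 25.2 CPM in Ctrl and at 78.5 and 111 CPM in TKO (log2 change 1.39, SE 0.31, adjusted p = 0.0958). For these 3 genes the groups did not overlap in the class, an order that is common with 2 against 2 libraries. Within the less mature large cluster Spink5 overlapped, at 3.67 and 5.10 CPM in Ctrl and 4.498 and 18.1 CPM in TKO. The groups stayed apart within both large spinous-like clusters for Scel, at 11.8 and 4.86 CPM in Ctrl and 44.3 and 61.9 CPM in TKO in the less mature cluster of 681 cells. In the more mature cluster Scel was at 45.3 and 34.9 CPM in Ctrl and at 93.4 and 134 CPM in TKO.

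Calm4 was at 4622 and 3459 CPM in Ctrl and at 2528 and 2824 CPM in TKO spinous-like cells (log2 change −0.68, edgeR adjusted p = 0.139). Lor was set by 1 library, with 146 and 27.1 CPM in Ctrl and 245 and 210 CPM in TKO (log2 change 1.27, SE 0.70, adjusted p = 0.413). Without Ctrl replicate 1 the log2 change of Lor was 2.999, since Ctrl replicate 2 was then the sole control. Ivl (0.352 to 12.6 CPM) and Cnfn (3.52 to 22.5 CPM), late envelope genes like Lor, were also lowest in Ctrl replicate 2. Evpl and Ppl were at 155 to 160 and 361 to 374 CPM in Ctrl and at 125 to 134 and 305 to 315 CPM in TKO, without a call (adjusted p = 0.174 and 0.179).

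The remaining spinous-like members did not pass the test. Dsg1a was at 731 and 698 CPM in Ctrl and at 377.5 and 736.5 CPM in TKO (adjusted p = 0.538), so that TKO replicate 2 reached the Ctrl level. Dsc1 was at 201 and 139 CPM in Ctrl and at 155 and 298 CPM in TKO. Tgm1 was at 41.4 and 35.7 CPM in Ctrl and at 59.2 and 53.1 CPM in TKO (adjusted p = 0.189), and Tgm3 overlapped at 29.1 to 42.6 CPM. Among the lipid genes, Elovl4 overlapped at 563 to 683 CPM, Abca12 was at 174 and 143 CPM in Ctrl and 227 and 292 CPM in TKO (adjusted p = 0.165), and Cers3 was at 67.7 and 71.1 CPM in Ctrl and 91.7 and 97.9 CPM in TKO (adjusted p = 0.173). Ly6d overlapped at 5894 to 9094 CPM, Dmkn was at 3422 to 4360 CPM, Capns2 at 394 to 449 CPM and Casp14 at 104 to 138 CPM. Krt2 was at 1.90 to 6.23 CPM, Krt77 at 24.2 to 64.3 CPM and Klk7 at 1.38 to 5.58 CPM. Cdsn (corneodesmosin), Rptn and Mt4 were too low to be tested in any of the 3 layers.

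**Figure D4:**
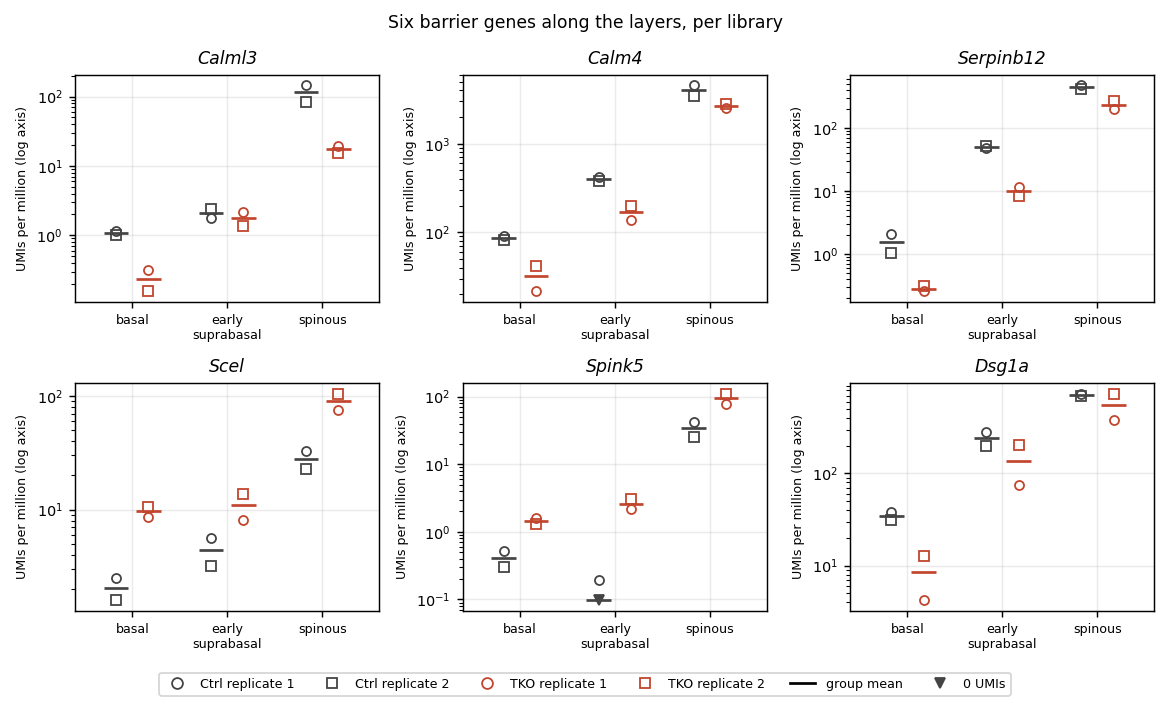
CPM (log axis, with its own range in each panel) of 6 genes in basal-like, early suprabasal-like and spinous-like cells, with 1 point per library, a bar for the mean of each group of 2 and a triangle for a library with 0 UMIs. TKO points lie below Ctrl points at all 3 steps for Calm4 and Serpinb12 and above them for Scel and Spink5, although Serpinb12 in basal-like cells is below its background in 3 of 4 libraries, while the Dsg1a points come together in spinous-like cells, where TKO replicate 2 reached 736.5 CPM.

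Whether the genotype effect differed between layers was tested directly, as the term for genotype by class in basal-like against differentiating-like cells (early suprabasal-like and spinous-like together). Dsg1a was the 1 member called, against 0.37% of the 17852 genes tested. Its log2 change was higher by 1.62 in the differentiating-like cells (SE 0.15, edgeR adjusted p = 0.0212), where Ctrl libraries held 627 and 546 CPM and TKO libraries 280 and 601 CPM. Capns2 (difference 1.44, adjusted p = 0.0667) and Cers3 (difference 0.84, adjusted p = 0.0837) came next and did not pass. The count of called members rose when Ctrl replicate 1, TKO replicate 1 or TKO replicate 2 was left out, in fits that hold 1 library in a group. For the other members a call in 1 layer and none in another does not show that the layers differ. In the differentiating-like cells taken as a whole 1 of 33 members tested was called, Calml3, with a log2 change of −2.86 (adjusted p = 0.0393), against 1.31% of 14461 genes. That call missed the threshold in 3 of 16 alternatives: without TKO replicate 1 (edgeR adjusted p = 0.0537), at 5000 UMIs per cell (0.0514) and with all genes in the clustering (0.0540). Summed over all keratinocytes, where the mix of layers and the level per cell cannot be told apart, 1 of 34 members was called, again Calml3 (log2 change −3.19, adjusted p = 0.0284), against 6.82% of 19964 genes, and that call was lost in 4 of 13 alternatives: without Ctrl replicate 1 (edgeR adjusted p = 0.178), without TKO replicate 1 (0.0541), without the expression filter (0.0629) and at 5000 UMIs per cell (0.0580).

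Other barrier genes from lists of the same pathways were read beside the 36, and beside the 11.7% of all genes called in basal-like cells (7.43% higher and 4.29% lower). Of 5 other cornified envelope and granule genes tested in basal-like cells, 0 rose and 1 fell (3 of the 5 had an unadjusted p under 0.05), and the gene was Tgm5, a transglutaminase of the upper layers, at 1.62 and 1.69 CPM in Ctrl and 0.223 and 0.425 CPM in TKO (edgeR adjusted p = 0.0210). Of 19 other desmosome and tight junction genes, 2 fell. They were Cldn1, the claudin that the epidermal barrier needs, at 96.2 and 96.1 CPM in Ctrl and 39.7 and 58.6 CPM in TKO (adjusted p = 0.0289), and Ocln (occludin), at 4.95 and 6.10 CPM in Ctrl and 1.72 and 1.16 CPM in TKO (adjusted p = 0.0127).

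Of 31 other barrier lipid genes 1 rose and 1 fell. Sptlc3, a subunit of the enzyme that starts ceramide synthesis, was at 31.8 and 28.4 CPM in Ctrl and 8.50 and 9.89 CPM in TKO (log2 change −1.71, edgeR adjusted p = 0.00270), and Abcg1, a cholesterol exporter, was at 2.11 and 2.27 CPM in Ctrl and 5.54 and 3.94 CPM in TKO (adjusted p = 0.0431). Of 15 other proteases and inhibitors, 3 kallikreins fell, Klk8, Klk11 and Klk13, with log2 changes of −1.52, −2.37 and −2.29. Padi3, which converts arginine to citrulline in filaggrin and trichohyalin, rose from 0 and 3 UMIs in Ctrl to 54 and 18 UMIs in TKO (adjusted p = 0.0290). It passed the expression filter through its TKO libraries alone, so its p is not read as support.

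In differentiating-like cells the other lists gave 2 calls, both higher in TKO, 1 of 6 envelope and granule genes and 1 of 33 lipid genes tested, against 1.31% of all genes tested there. Crct1, a gene of the epidermal differentiation complex, counted 1 and 1 UMIs for Ctrl and 88 and 204 UMIs for TKO (edgeR adjusted p = 0.0114). It passed the expression filter through its TKO libraries alone, so its p is not read as support. Lipk, a lipase of the upper epidermis, was at 1.44 and 0.979 CPM in Ctrl and at 6.82 and 6.46 CPM in TKO (adjusted p = 0.0482). Neither the 18 other desmosome and tight junction genes nor the 14 other proteases and inhibitors tested there gave a call in edgeR (0 of each, with 6 of each at an unadjusted p under 0.05).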

How the data were processed

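Per the labels, Epcam+ α6+ cells of dorsal skin were run on the 10x Genomics 3' v3 kit. The authors deposited a filtered matrix per library that holds raw UMI counts, not normalized. Their headers name Cell Ranger 7.1.0, and the build is GRCm39. The annotation release, and whether intronic reads were counted, are not given in the sources used here.

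Cells were kept if 2000 or more genes were detected and mitochondrial UMIs made up less than 10% (11221 of 19789). The top Scrublet scores of each library (scanpy 1.11.5) at 0.8% per 1000 barcodes, 457 cells, were left out as doublets, because the automatic threshold marked 1 and 2 cells in Ctrl against 27 and 31 in TKO. Clusters (2000 variable genes, 30 components aligned by a Harmony implementation, 20 neighbours, Leiden resolution 1) were named from fixed markers. Keratinocytes were clustered again without the members and without 1361 genes that differed between genotypes. Keratinocyte clusters led by genes such as Psca, Mal and Krt4 were left unnamed by rule, whatever their basal keratins. UMIs were summed per class and library and tested with edgeR 4.0.16 (R 4.3.3; quasi-likelihood, TMM factors, default expression filter, Benjamini-Hochberg over all genes tested). Alternatives included DESeq2 1.42.0. The test was run on counts simulated with the same fixed spread for every gene, which need not match the spread between these embryos. Interval bounds are exact binomial.

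Libraries ranged from 70749496 to 89655247 UMIs. The members and the lists were chosen with earlier results of these data known. Values are given for members called in any class and for the 3 members of each role list with the highest mean Ctrl CPM in spinous-like cells. They stand per library or, in classes without a call, in part as a range over the libraries. Other listed genes are named where called in basal-like or differentiating-like cells, at most 3 per list and direction. Other members named with values (Krtdap, Sbsn, Ivl and Cnfn among them) were chosen after their values were seen.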

Additional observations from a re-analysis of the deposited data

Results flagged for a closer look

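The genotype effect on Dsg1a differed between layers. Its log2 change was 1.62 higher in differentiating-like than in basal-like cells (edgeR adjusted p = 0.0212 for the difference itself, n = 2 libraries per group). This was the 1 difference between layers among the members that passed the test.

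Hair follicle-like cells entered the comparisons of the report only within the sum over all keratinocytes. In them Dmkn was at 390 and 313 CPM in Ctrl and at 507 and 510.5 CPM in TKO, a mean 1.45 times higher in TKO. Lor was at 2.43 and 3.57 CPM in Ctrl and at 7.35 and 6.04 CPM in TKO hair follicle-like cells, a mean 2.23 times higher. These were the 2 members higher in both TKO libraries among 9 with at least 30 UMIs in each library, and 6 of the 9 were lower in both. That floor left out Calml3, with 93 and 92 UMIs in Ctrl and 7 and 8 UMIs in TKO. It also left out Capns2, with 247 and 308 UMIs in Ctrl and 27 and 131 UMIs in TKO. The other members under the floor overlapped or were lower in TKO as well. Over all 11367 genes with that many UMIs, 29.2% were higher and 32.5% lower in both TKO libraries, so such an order is common here. Scel, which was higher in TKO basal-like cells, was lower there, at 17.2 and 21.3 CPM in Ctrl and at 8.34 and 6.65 CPM in TKO. A cluster of 376 keratinocytes led by Psca, Mal and Krt4 was left unnamed by a rule against clusters led by such genes. Its Krt5 and Krt14 together stood at 9272 CPM. Sbsn was there at 20.6 and 37.0 CPM in Ctrl and at 45.3 and 81.2 CPM in TKO, a mean 2.20 times higher. Of the 8 members with at least 30 UMIs in each library of that cluster, it was the 1 higher in both TKO libraries and 5 were lower in both (Krtdap, Dmkn, Calm4, Evpl and Ppl), against 29.7% and 32.1% of 6535 genes. The cluster held 95 and 105 Ctrl and 96 and 80 TKO cells, but at Leiden resolution 0.5 the cells led by Psca, Mal and Krt4 formed a cluster of 3 and 2 Ctrl and 38 and 24 TKO cells, so its Ctrl and TKO cells may not be the same kind of cell. No difference in this paragraph was tested.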

How the results depend on the processing

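The 17 calls of single members kept their direction in 272 of 272 alternatives and their side of the threshold in 236. Alternatives in which a gene was not tested are not counted, as for Calml3, Serpinb12 and Spink5 in basal-like cells at 5000 UMIs per cell. The alternatives reuse the same libraries, and some calls are of 1 gene in overlapping classes. Scel in basal-like cells, Calml3 in spinous-like cells and the Dsg1a difference between layers passed in every alternative run for them. The basal-like count was 11, 9 with DESeq2, 7 at 5000 UMIs per cell and 1 to 11 when a library was left out: without Ctrl replicate 1 just Scel passed (1 call), and without Ctrl replicate 2, 5 did. The early suprabasal-like count was 2, beside 305 genes called over all genes. It was 12 without the expression filter, 0 with all genes in the clustering and 7 with crossed pairs, and it moved when a library was left out. The spinous-like count was 1, 6 with DESeq2, 2 with RLE factors, 15 without the filter, 8 at 5000 UMIs per cell, 4 on uncorrected components, 2 with all genes in the clustering, 3 at Leiden resolution 2, 7 with crossed pairs and 2 to 6 without a library. The differentiating-like count was 1, 6 with DESeq2, 16 without the filter, 4 on uncorrected components, 0 with all genes in the clustering, 7 with crossed pairs and 1 to 4 without a library. The all-keratinocyte count was 1, 3 with DESeq2, 0 without the filter, 0 at 5000 UMIs per cell, 15 with crossed pairs and 0 to 5 without a library. The count of differences between layers was 1, 3 with DESeq2, 9 without the filter, 4 at 5000 UMIs per cell, 2 with doublets kept, 3 on uncorrected components, 2 at Leiden resolution 0.5 and 1 to 6 without a library. The cause of these shifts was not tested. The counts over all genes moved with the settings as well, so the counts of members are not read alone. Over all genes, the basal-like count of 2042 ranged from 623 without Ctrl replicate 1 to 3589 with crossed pairs, and the spinous-like count of 257 from 117 without Ctrl replicate 1 to 1792 without the filter. Without thinning, the TKO minus Ctrl difference in members per cell was −0.319 in basal-like, 0.2501 in early suprabasal-like and 1.01 in spinous-like cells, against −0.710, −0.890 and 0.330 at 5000 UMIs. With all genes in the clustering it was −0.0468 in early suprabasal-like cells. Without a library it ranged from −0.986 to −0.434, from −1.45 to −0.331 and from −0.17 to 0.829. No early suprabasal-like class formed on uncorrected components or at Leiden resolution 0.5.

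The replicate numbers did not pair the samples (correlation of deviations −0.274 to −0.174). With the replicate block the counts were 14 basal-like, 2 early suprabasal-like, 1 spinous-like, 1 differentiating-like and 1 over all keratinocytes. The crossed pairing, the basal-like class without cells rich in Krt1 and Krt10 (11 calls) and the spinous-like class without shallow clusters (1 call) were chosen after seeing the data. With crossed pairs the basal-like count was 13.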

Other observations

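In hair follicle-like cells Dsg1a was at 8.28 and 4.59 CPM in the Ctrl libraries and at 1.65 and 3.97 CPM in the TKO libraries, which stand for 109, 63, 15 and 46 UMIs. These values were not tested.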
